A study of Homo sapiens with 6 samples.

Results

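Aminoacyl-tRNA synthetases and the scaffold proteins that hold some of them together were followed in HepG2, a human liver cancer cell line that keeps many hepatocyte genes. The 38 genes were taken by symbol and by no cut on measured values, but with earlier results of these data known. They are 19 genes of cytosolic enzymes, 3 genes of scaffold proteins (AIMP1, AIMP2 and EEF1E1) and 16 genes of mitochondrial enzymes. All 38 were found among the 43424 symbols of the count files, and all 38 passed the filter on low counts that left 13198 genes to test. The study compared 3 control cultures with 3 cultures given 10 µM tamarixetin, a methylated form of the flavonol quercetin, for 24 h. Genotype is given as wild type in both groups. Growth medium held 10% serum and the medium with the compound 1%. The labels give no treatment for the controls, name no vehicle and do not state the serum of the control medium in those 24 h, so compound and medium cannot be told apart where they differed.

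Each synthetase joins 1 amino acid to its matching tRNAs, and the charged tRNAs then carry the amino acids to the ribosome. Cytosol and mitochondria make proteins separately, and for most amino acids the enzyme of each compartment has its own nuclear gene. The GARS1 and KARS1 genes serve both compartments, EPRS1 joins 2 enzyme activities in 1 protein, and FARSA and FARSB encode the subunits of 1 enzyme. Several cytosolic enzymes sit with the 3 scaffold proteins in a large multi-synthetase complex. When amino acids run short or other stresses lead to phosphorylation of the initiation factor eIF2, the transcription factor ATF4 is made, and many cytosolic synthetase genes are known as its targets. ATF4 binds, with partners of the C/EBP family, to a site called the C/EBP-ATF response element.

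That element was searched as TGATGNAA, on both strands (TTNCATCA on the strand of the gene when it lies reversed), in RefSeq promoter windows of GRCh38.p14 that run from 250 bases before to 50 bases after a start site. Windows were found for 33 of the 38 members, and not for AARS2, LARS1, VARS1, VARS2 and YARS1. The letters occurred in 7 of 16 cytosolic members (43.8%), in 1 of 14 mitochondrial members (7.14%) and in 0 of 3 scaffold genes. Among all 27305 genes with a window 4.46% held them, and among the 10357 of these that were tested for expression 2.68% did. The 8 matching stretches are shown, 7 of them from cytosolic genes that rose. All cytosolic genes but QARS1 rose, so a rise does not set these 7 apart from those without a match. Each stretch runs 5′ to 3′ on the strand of its gene, with the match in capitals, 24 bases before it and 8 after it.
GARS1, chr7:30594821-30594860, plus strand: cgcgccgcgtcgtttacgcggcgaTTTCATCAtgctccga
MARS1, chr12:57488040-57488079, plus strand: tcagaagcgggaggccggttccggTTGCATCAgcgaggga
CARS1, chr11:3057410-3057449, minus strand: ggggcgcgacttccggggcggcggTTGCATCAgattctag
TARS1, chr5:33440943-33440982, plus strand: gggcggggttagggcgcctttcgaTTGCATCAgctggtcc
AARS1, chr16:70289678-70289717, minus strand: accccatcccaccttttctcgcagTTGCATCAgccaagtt
NARS1, chr18:57621807-57621846, minus strand: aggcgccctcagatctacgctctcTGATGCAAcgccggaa
IARS1, chr9:92293695-92293734, minus strand: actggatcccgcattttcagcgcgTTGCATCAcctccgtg
YARS2, chr12:32756079-32756118, minus strand: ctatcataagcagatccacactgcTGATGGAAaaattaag

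The match began 33 bases before the listed start site in GARS1, 13 before it in IARS1, 4 before it in MARS1 and 2 before it in CARS1. In TARS1 and NARS1 it began 2 and 14 bases after the start. GARS1 and TARS1 each have 2 start sites in the RefSeq table, and the one used here is the site with the match, which lies inside the gene, downstream of its first base. AARS1 and the mitochondrial gene YARS2 had it farther out, 187 and 197 bases before the start. The 7 cytosolic genes with a match had log2 fold changes from 0.37 to 0.78 (median 0.54), and the 9 cytosolic genes with a window but no match had values from -0.09 to 0.56 (median 0.23). These are descriptions of letters in a window, with no test, and they do not show that a factor was bound.

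Libraries were made with a kit that reads the 3′ end of mRNA, per the labels' protocols, so that counts do not grow with transcript length; a count is a read, which may be a PCR copy. They held 11980585 to 16168855 counts, and 33656 to 54536 of these fell on the 38 members. Levels are given as CPM, counts scaled to 1 library total, with TMM factors. Hepatocyte markers were present, ALB at 3322 ± 111 CPM in control (SD, n = 3), and 9 of 10 fell in the edgeR fit described below, beside 21.3% of all genes tested. The sum of the 10 was 16359 ± 310.1 CPM in the controls and 9381 ± 131 CPM after tamarixetin (SD, n = 3 each). Of 12 markers of other liver cells, STAB2 and CD3E had 0 counts in every library and PTPRC, MARCO and VWF were too low to test. Of the 7 that were tested, 3 fell (COL1A1, ACTA2 and PDGFRB) and 0 rose. The summed level of all 12 was 124.9 to 127.8 CPM in control and 110.8 to 115.7 CPM with tamarixetin, most of it ACTA2. The mitochondrial share of counts was 10.7% ± 0.391 in control and 8.24% ± 0.278 with tamarixetin, and the part of this share and of the marker falls in the values below was not tested. In bulk RNA, a change in every cell and a change in the share of cells with a given level cannot be told apart.

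Cytosolic synthetase genes rose nearly as a whole after tamarixetin, and mitochondrial ones did not. In the quasi-likelihood F test of edgeR, with p-values adjusted over all 13198 genes by the Benjamini-Hochberg method, 18 of 19 cytosolic genes passed the threshold of 0.05 with a rise and 0 with a fall. All 3 scaffold genes rose. Of the 16 mitochondrial genes 2 rose, 4 fell and 10 did not pass. As background, 43.7% of all genes tested passed, 22.4% with a rise and 21.3% with a fall. The median log2 fold change was 0.43 in the cytosolic genes, 0.33 in the scaffold genes and -0.08 in the mitochondrial genes, beside 0.00038 over all genes tested. No member reached a 2-fold change. With a minimum fold of 1.2 as the null of the same test, 11 cytosolic genes, 1 scaffold gene and 0 mitochondrial genes were called higher beside 9.99% of all genes, and 0 members lower beside 9.4%.

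**Figure D1:**
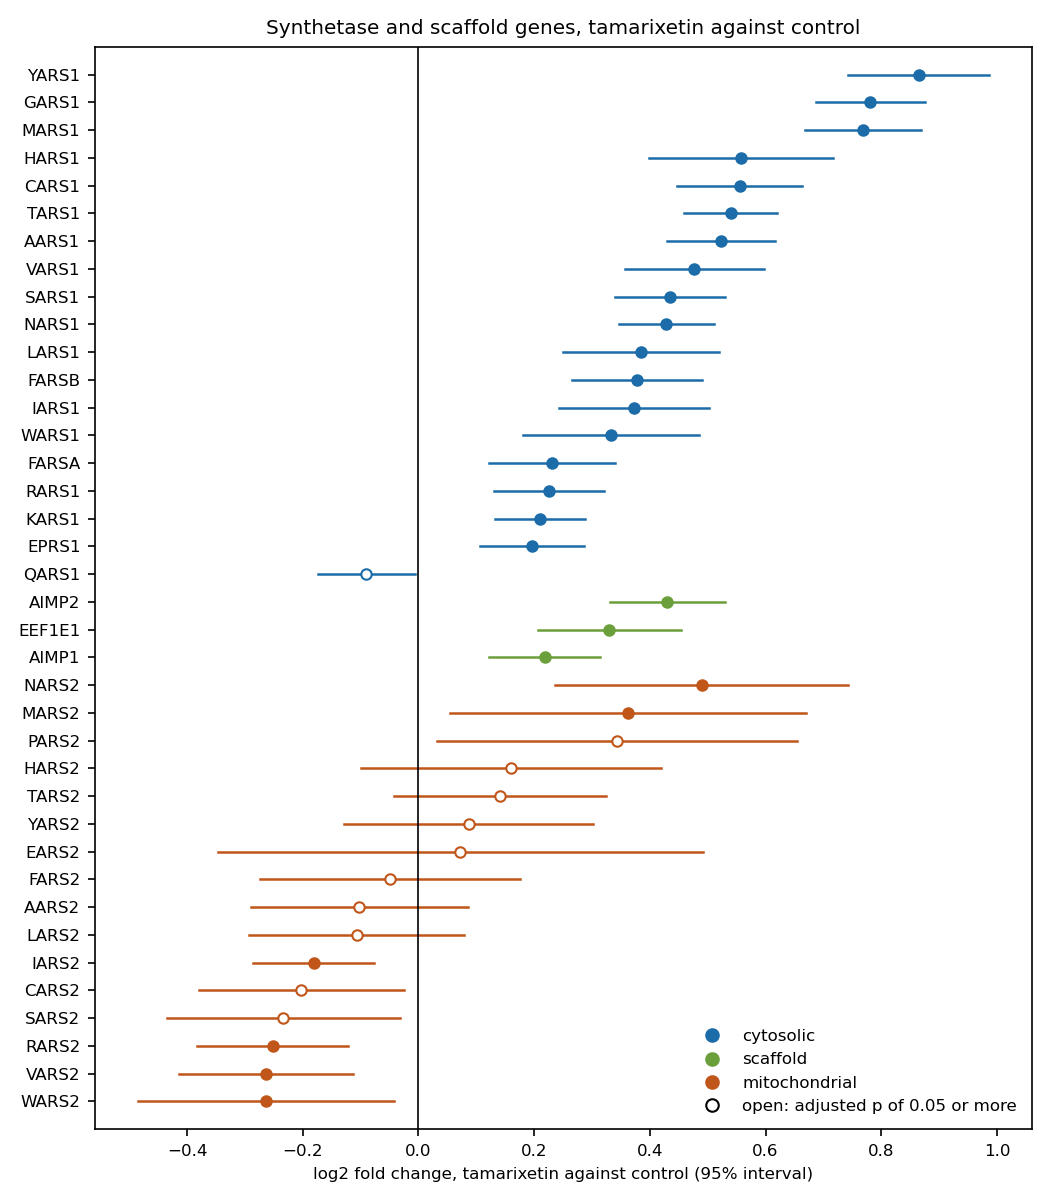
Log2 fold change of each of the 38 genes, tamarixetin against control (horizontal axis), with its 95% interval as a bar; colours mark cytosolic, scaffold and mitochondrial genes, and open points did not pass an adjusted p of 0.05 (edgeR). All cytosolic and scaffold points but that of QARS1 lie to the right of 0, and the mitochondrial points lie on both sides.

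Added up, the 19 cytosolic genes stood at 2099, 2100.2 and 2077 CPM in the control libraries and at 2742, 2754 and 2739.9 CPM in the tamarixetin libraries, a mean 31.2% higher. The 16 mitochondrial genes together stood at 443, 436 and 449 CPM in control and at 409.7, 419.96 and 404 CPM with tamarixetin, a mean difference of -7.10%. For the scaffold genes the sums were 264, 269 and 276 CPM and then 347, 327 and 336 CPM. In each of the 3 sums the groups did not overlap. The ratio of the cytosolic to the mitochondrial sum was 4.73 ± 0.0926 in control and 6.68 ± 0.111 with tamarixetin (SD, n = 3 each). The mean log2 CPM over mitochondrial genes, which weights the 16 alike, was 4.34 ± 0.0216 in control and 4.35 ± 0.0249 with tamarixetin (SD, n = 3 each) and its libraries overlapped.

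YARS1, the tyrosine enzyme (chromosome 1, 32775239 to 32817358, GRCh38), had the largest rise of all members. It stood at 47.6, 51.3 and 56.8 CPM in the control libraries and at 90.5, 93.8 and 100.3 CPM in the tamarixetin libraries. That is 1.82-fold, or 0.87 on the log2 scale (SE 0.061, adjusted p = 2.14e-23, edgeR). The lowest tamarixetin library lay well above the highest control library.

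GARS1, which charges glycine tRNAs in both compartments (chromosome 7, 30594735 to 30634033), was at 103, 114 and 106 CPM in control and at 191, 185 and 178 CPM with tamarixetin. Its log2 fold change was 0.78 (SE 0.047, adjusted p = 4.56e-28, edgeR), the smallest p among the members. MARS1, the methionine enzyme that also charges the initiator tRNA (chromosome 12, 57488068 to 57516652), was at 98.3, 87.0 and 99.2 CPM in control and at 151, 167 and 169 CPM with tamarixetin (log2 fold change 0.77, SE 0.050). Both genes had all tamarixetin libraries over all control libraries. The end of MARS1 lies inside DDIT3 on the other strand, and without a stated strand setting their reads cannot be told apart. DDIT3 itself stood at 10.3 ± 1.62 CPM in the controls and 13.4 ± 2.28 CPM after tamarixetin (SD, n = 3 each). DDIT3 also passed as higher (log2 fold change 0.38, adjusted p = 0.0189, edgeR), with groups that overlapped. The part of shared reads in the value of MARS1 was not tested.

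A group of 4 genes followed with rises close to each other. HARS1, the histidine enzyme, was at 27.2, 31.6 and 30.6 CPM in control and at 43.3, 45.2 and 42.8 CPM with tamarixetin (log2 fold change 0.56, SE 0.080). CARS1, the cysteine enzyme, moved from 74.8, 69.8 and 74.5 CPM to 108, 111 and 104 CPM (0.56, SE 0.055). TARS1, the threonine enzyme, was among the more abundant members at 188, 201 and 196 CPM and then 279, 286 and 286 CPM (0.54, SE 0.040). AARS1, the alanine enzyme, had 130.3, 117 and 124 CPM in control and 186, 176 and 171 CPM with tamarixetin (0.52, SE 0.047). In all 4 the groups did not overlap. The 95% intervals of their log2 fold changes lay between 0.40 and 0.72 and covered one another.

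VARS1, the valine enzyme, rose from 56.0, 58.4 and 64.9 CPM in the control libraries to 81.6, 85.1 and 83.4 CPM in the tamarixetin libraries (log2 fold change 0.48, SE 0.060, adjusted p = 6.09e-11, edgeR). SARS1 for serine and NARS1 for asparagine rose by 0.44 and 0.43 on the log2 scale, LARS1 for leucine and FARSB, the beta subunit of the phenylalanine enzyme, by 0.38 each, IARS1 for isoleucine by 0.37 and WARS1 for tryptophan by 0.33. The smallest rises that passed were in FARSA, the alpha subunit (0.23), RARS1 for arginine (0.23), KARS1 for lysine (0.21) and EPRS1 for glutamate and proline (0.20). These 4 amounted to 1.15-fold to 1.17-fold. Without control replicate 3, its lowest library, RARS1 had 0.13 (adjusted p = 0.0187, edgeR). In each of the 18 cytosolic genes that rose, all 3 tamarixetin libraries lay above all 3 controls. Groups did not overlap in 50.5% of all genes tested, 26% with tamarixetin higher.

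QARS1, the glutamine enzyme, was the single cytosolic member without a rise. It stood at 209, 215 and 227 CPM in control and at 195, 206 and 213 CPM with tamarixetin, and the groups overlapped. Its log2 fold change was -0.09 (95% interval -0.17 to -0.01, adjusted p = 0.0752, edgeR). Across 14 other settings and left-out libraries it stayed between -0.13 and -0.06, and it passed as lower in 4 of them, with adjusted p from 0.0113 to 0.384 over all 14. Of these 4, 2 left out a library, control replicate 1 (log2 fold change -0.12, adjusted p = 0.0226, edgeR) or tamarixetin replicate 3 (-0.12, adjusted p = 0.0432).

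**Figure D2:**
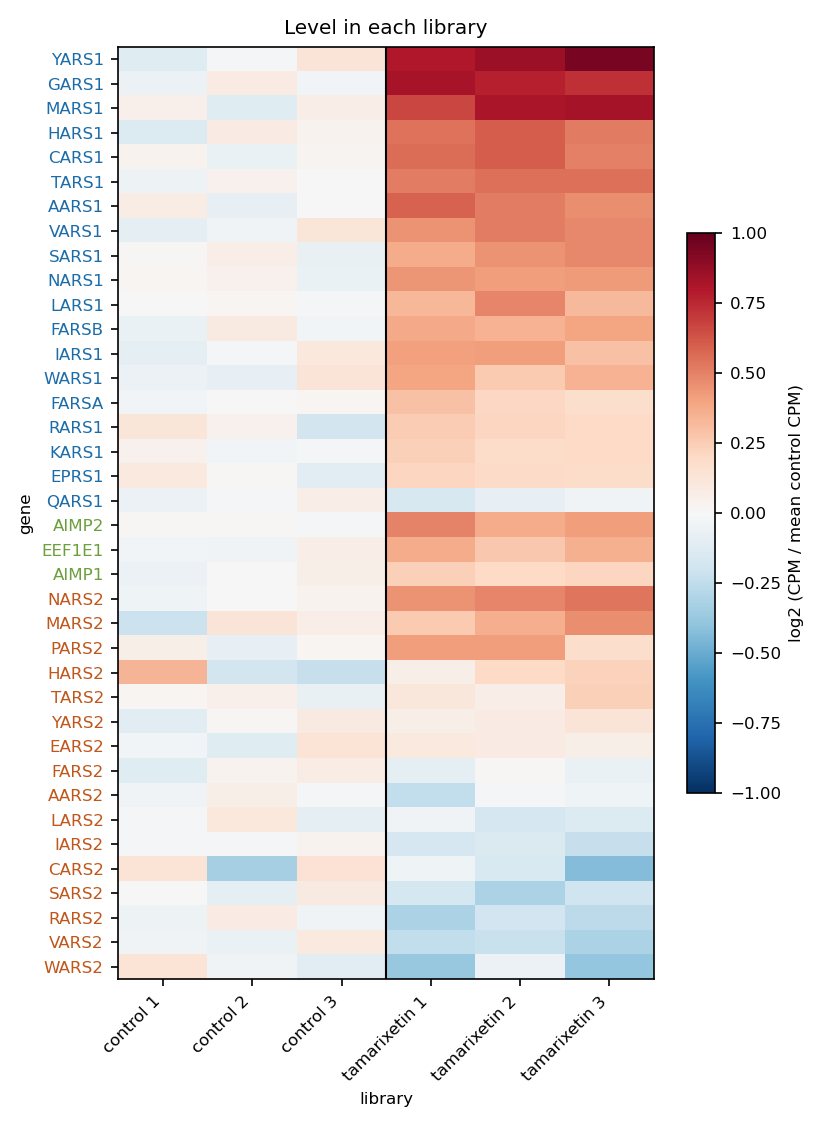
Level of each gene in each of the 6 libraries, as log2 of its CPM over its mean control CPM (colour scale from -1, blue, to 1, red); rows are genes, named in blue for cytosolic, green for scaffold and orange for mitochondrial, and columns are libraries. The 3 tamarixetin columns are red for 18 cytosolic and 3 scaffold genes and pale or mixed for most mitochondrial genes.

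The scaffold genes rose with the enzymes. AIMP2, which binds other members of the complex together, was at 97.5, 97.9 and 95.5 CPM in control and at 136, 126 and 129 CPM with tamarixetin (log2 fold change 0.43, SE 0.050). EEF1E1, which encodes the scaffold protein also called AIMP3, was at 55.9, 55.7 and 59.7 CPM and then 73.8, 68.8 and 73.1 CPM (0.33, SE 0.062). AIMP1 was at 111, 115 and 120.4 CPM and then 136, 133 and 134 CPM (0.22, SE 0.048). The adjusted p was 2.49e-12, 4.57e-06 and 9.17e-05 (edgeR), and in none of the 3 did the groups overlap. The end of AIMP2 lies inside EIF2AK1 on the other strand, and their reads cannot be told apart either. EIF2AK1 fell by 0.31 on the log2 scale, and the part of shared reads in the value of AIMP2 was not tested.

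Within the cytosolic enzymes, genes outside the complex had a higher median than those in it. Of the 7 enzymes in the complex among the members, 6 rose, with a median log2 fold change of 0.23 and MARS1 as the highest. All 12 enzymes outside it rose, with a median of 0.50. The split by known ATF4 targets was similar: the 12 genes often listed as such all rose, with a median of 0.48, and of the other 7, 6 rose, with a median of 0.23. Synthetases fall into class I and class II by the fold of their catalytic domain. Cytosolic class I genes (8 of 9 rose, median 0.38) and class II genes (9 of 9 rose, median 0.44) were close to each other. None of these differences within the cytosolic genes was tested, and the splits overlap.

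Among the mitochondrial genes NARS2, the asparagine enzyme, had the largest rise. It was at 10.3, 10.7 and 10.9 CPM in control and at 14.5, 14.9 and 15.4 CPM with tamarixetin, with no overlap (log2 fold change 0.49, SE 0.128, adjusted p = 8.77e-04, edgeR). MARS2, the methionine enzyme, was at 6.50, 8.25 and 7.90 CPM and then 9.04, 9.70 and 10.4 CPM (log2 fold change 0.36, SE 0.155, adjusted p = 0.0493). The call of MARS2 was lost in 11 of 14 alternatives, 4 of which left out 1 library (control replicate 1 or 3, tamarixetin replicate 2 or 3), with adjusted p from 0.0293 to 0.219 over the 14. The log2 fold change without these libraries, in that order, was 0.26, 0.40, 0.36 and 0.31.

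The 4 mitochondrial genes that fell changed by less than most cytosolic genes did. RARS2, the arginine enzyme, was at 59.3, 65.0 and 60.0 CPM in control and at 49.4, 53.8 and 51.3 CPM with tamarixetin (log2 fold change -0.25, SE 0.066, adjusted p = 9.22e-04, edgeR). VARS2, the valine enzyme, was at 43.7, 42.9 and 48.0 CPM and then 37.8, 38.5 and 36.0 CPM (-0.26, SE 0.076). IARS2, the isoleucine enzyme and the most abundant mitochondrial member by 3′ counts, was at 103, 102 and 106 CPM and then 92.6, 93.9 and 88.6 CPM (-0.18, SE 0.052). In these 3 genes the groups did not overlap. With SARS2, that made 4 of 16 mitochondrial genes with tamarixetin lower in all libraries, and 4 had it higher. Among all genes tested the shares were 24.5% lower and 26% higher. The 4 falls that passed stand beside 21.3% of all genes, and 37.5% of mitochondrial genes passed either way beside 43.7%. The falls are thus close to the share over all genes and no result about the list. WARS2, the tryptophan enzyme, was at 21.7, 19.3 and 18.2 CPM and then 15.2, 19.0 and 15.1 CPM, and here the groups overlapped (log2 fold change -0.26, SE 0.112, adjusted p = 0.0461). Its call was lost in 7 of 14 alternatives, 4 of which left out 1 library (control replicate 1 or 2, tamarixetin replicate 1 or 3), with adjusted p from 0.0113 to 0.224 over the 14. The log2 fold change without these libraries, in that order, was -0.19, -0.29, -0.21 and -0.21.

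The other 10 mitochondrial genes did not pass. SARS2 for serine (log2 fold change -0.23, 95% interval -0.44 to -0.03, adjusted p = 0.0535, edgeR), CARS2 for cysteine (-0.20, interval -0.38 to -0.02, adjusted p = 0.0579) and PARS2 for proline (0.34, interval 0.03 to 0.65, adjusted p = 0.0675) came closest. CARS2 overlapped between the groups, at 40.0, 28.9 and 40.4 CPM in control and 35.4, 32.8 and 27.0 CPM with tamarixetin. It passed as lower without control replicate 2 (-0.34, adjusted p = 0.00166) or tamarixetin replicate 1 (-0.29, adjusted p = 0.00866). Without control replicate 1, control replicate 3 or tamarixetin replicate 3 it was smaller (-0.14, -0.13 and -0.10) and did not pass (adjusted p from 0.284 to 0.418). CARS2 also passed with upper quartile scaling, a filter keeping genes with 5 CPM or more in 3 libraries, or a replicate block, with adjusted p from 0.00166 to 0.437 over the 14 alternatives. HARS2 for histidine, TARS2 for threonine, YARS2 for tyrosine and EARS2 for glutamate had positive values of 0.16, 0.14, 0.09 and 0.07. HARS2 passed as higher without control replicate 1 (0.37, adjusted p = 0.0336), PARS2 without tamarixetin replicate 3 (0.42, adjusted p = 0.0424), and SARS2 as lower without control replicate 2 (-0.28, adjusted p = 0.0373). LARS2 for leucine, AARS2 for alanine and FARS2 for phenylalanine had -0.11, -0.10 and -0.05. Leaving out 1 library moved several of these small values by over 1.5 times. AARS2 had -0.029 without tamarixetin replicate 1, and LARS2 -0.062 without control replicate 2. FARS2 ran from -0.11 without control replicate 1 to -0.0093 without control replicate 3, and also moved without tamarixetin replicate 1 (-0.026) or 2 (-0.078). YARS2 had 0.032 and 0.13 without control replicate 1 and 3, and EARS2 had 0.014 and 0.15 without control replicate 2 and 3. HARS2 had 0.079 and 0.043 without control replicate 2 and 3. Intervals were wide where counts were low: EARS2, at 4.08 to 4.89 CPM in control, had an interval from -0.35 to 0.49. SE ran from 0.052 (IARS2) to 0.211 (EARS2) in mitochondrial genes and from 0.039 (KARS1) to 0.080 (HARS1) in cytosolic genes, so a change of the size of the smaller cytosolic rises was not detectable in the shallowest mitochondrial genes.

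Setting the cytosolic and the mitochondrial gene for the same amino acid side by side gave 17 pairs, in which EPRS1 and FARS2 each stand in more than 1. The log2 ratio of the cytosolic to the mitochondrial gene was computed in each library. In 14 of the 17 pairs the ratio was higher in all tamarixetin libraries than in all controls, in 0 it was lower in all, and in 3 the groups overlapped. No share for ratios of other gene pairs was computed to set beside this. On their own, 18 of 19 cytosolic genes lay higher without overlap, beside 26% of all genes tested. The count of pairs is not independent of that rise. The median shift was 0.48 on the log2 scale. Each of the 14 had p = 0.1 in a two-sided exact permutation test, the smallest that 3 against 3 allows, and 0.121 after Benjamini-Hochberg adjustment over the 17 pairs, so no single pair could pass 0.05.

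In 4 pairs the 2 genes passed in opposite directions, cytosolic higher and mitochondrial lower, in the edgeR fit: valine, tryptophan, isoleucine and arginine. The mitochondrial genes of these 4 pairs are the 4 that fell, a count close to the share over all genes. Because 0 cytosolic genes passed as lower, the opposite pattern could not occur, and its absence carries no information. VARS1 and VARS2 had a ratio shift of 0.74, with log2 ratios of 0.41 ± 0.0490 in control and 1.15 ± 0.0521 with tamarixetin (SD, n = 3 each). WARS1 was at 34.3, 33.8 and 39.2 CPM in control and 47.1, 42.8 and 45.6 CPM with tamarixetin, against the fall of WARS2. IARS1 was at 47.8, 51.0 and 55.0 CPM and then 68.0, 68.5 and 62.7 CPM, against the fall of IARS2. RARS1 was at 169.9, 161 and 137 CPM and then 186, 181 and 179 CPM, against the fall of RARS2. The ratio shifts of these 3 pairs were 0.60, 0.55 and 0.48. The call of WARS2 in the tryptophan pair is the one that many alternatives lost.

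The largest shift was that of the tyrosine pair, 0.78, followed by cysteine with 0.75. The end of YARS2 lies inside DNM1L on the other strand, and without a stated strand setting their reads cannot be told apart. DNM1L did not pass (log2 fold change 0.14), and the part of shared reads in the tyrosine shift was not tested. The asparagine pair stood apart, with both genes higher (NARS1 0.43 and NARS2 0.49) and a ratio shift of -0.06. Methionine was the other pair in which both genes rose, and there the shift was 0.41. The pairs of EPRS1 with EARS2 (0.12) and with PARS2 (-0.13) overlapped between the groups, as did the asparagine pair, and without control replicate 3 the shift with EARS2 was -0.0051. HARS1 and HARS2 lie head to head on chromosome 5, with 84 bases between them by RefSeq positions. In GENCODE 29 the 2 genes overlap on opposite strands. HARS1 rose by 0.56, and HARS2 had 0.16 (interval -0.10 to 0.42). Their ratio shift was 0.37, and 0.13 without control replicate 1, where HARS2 was highest. The end of HARS1 lies in WDR55 on the other strand, and that of HARS2 in ZMAT2 on the same strand, so the counts of this pair are less certain. Neither WDR55 (0.21) nor ZMAT2 (-0.04) passed.

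**Figure D3:**
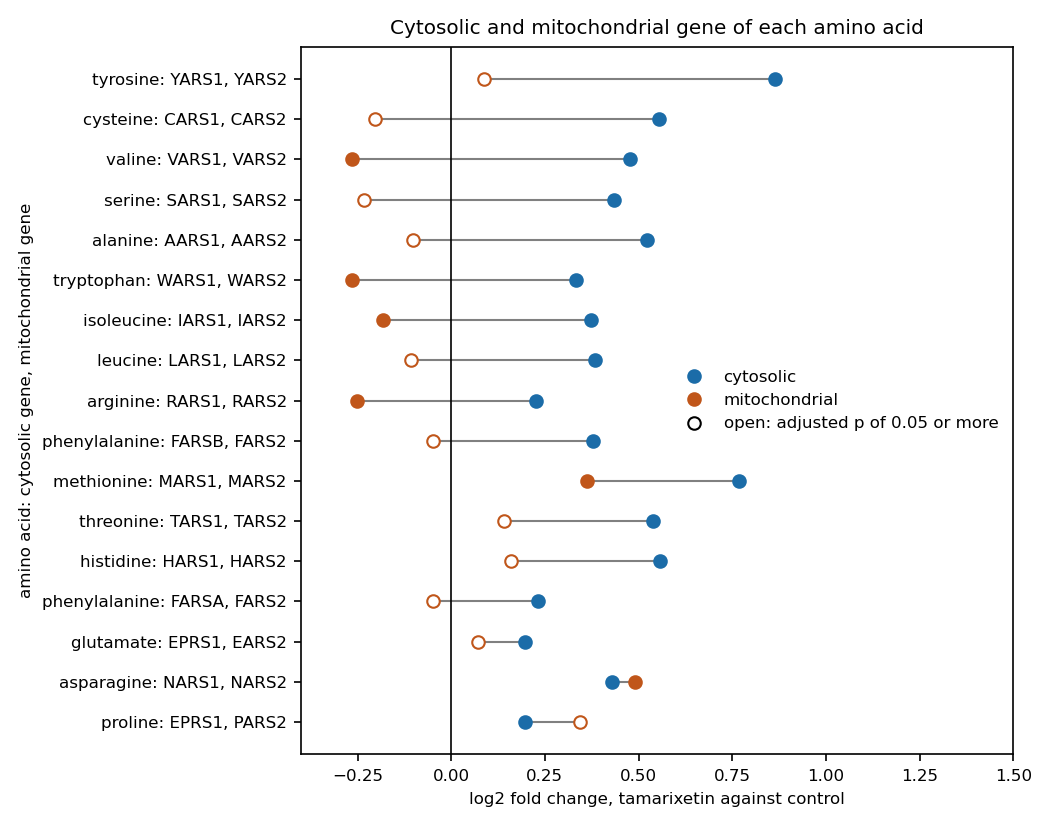
Log2 fold change, tamarixetin against control (horizontal axis), of the cytosolic (blue) and mitochondrial (orange) gene for the same amino acid, 1 pair per row and ordered by the shift of their ratio; open points did not pass an adjusted p of 0.05 (edgeR). The blue point lies to the right of the orange one in 15 of 17 pairs, the exceptions being asparagine and the proline pair of EPRS1 with PARS2.

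Other genes of tRNA use were counted from lists in the same fit, to be read beside the 22.4% of all genes tested that rose and the 21.3% that fell. In the amino acid response, the signalling that runs through eIF2 kinases and ATF4, 12 of 18 genes tested rose and 2 fell, with a median log2 fold change of 0.26. PPP1R15A, which encodes a phosphatase subunit that reverses eIF2 phosphorylation, rose from 11.6 ± 0.732 to 34.2 ± 2.09 CPM (SD, n = 3 each; log2 fold change 1.56). The leucine sensor SESN2 rose by 0.63, TRIB3, a feedback inhibitor of ATF4, by 0.58, and ATF4 itself by 0.33. The eIF2 kinase genes EIF2AK1 and EIF2AK3 were the 2 that fell. Of the other eIF2 kinase genes, EIF2AK2 rose by 0.22 and EIF2AK4 did not pass (-0.12, adjusted p = 0.0631, edgeR). ASNS, asparagine synthetase, had 0 to 2 counts per library and was not tested. The files also list CZ1P-ASNS, a readthrough gene over the same locus, and reads that lie in both genes may not have been counted, so these counts are no measure of its expression.

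Genes of tRNA processing and export rose in 10 of 18 and fell in 3, with a median of 0.23. SSB, the La protein that binds new RNA polymerase III transcripts, rose by 0.28, and the splicing endonuclease subunit TSEN15 by 0.40. Of the other subunits of that endonuclease TSEN34 (-0.31) and TSEN54 (-0.37) fell. RTCB, the tRNA ligase, rose by 0.26. Genes of tRNA modification rose in 20 of 40 and fell in 3, with a median of 0.23. The methyltransferases NSUN2 (0.48) and NSUN6 (0.77) rose, as did TRMT6 (0.39), a noncatalytic subunit of a tRNA methyltransferase.

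Of the genes that transcribe tRNA genes 8 of 24 were higher and 3 lower, beside 22.4% and 21.3% of all genes, with a median of -0.01, which became 0.025 when only library size was used for scaling. POLR3G, a subunit of RNA polymerase III, rose by 0.98, and GTF3C6, POLR1C and POLR3E by 0.28, 0.43 and 0.31. POLR3GL, the paralog that takes the place of POLR3G in the enzyme, fell, as did MAF1, a repressor of the polymerase, and GTF3C5. Cytosolic elongation and termination genes rose in 9 of 12 and fell in 0, with a median of 0.15. The release factor GSPT1 rose by 0.31, the ribosome recycling factor ABCE1 by 0.42, EIF5A2 by 1.11 from a low level and the kinase EEF2K by 0.33. Of 8 editing and synthetase-like genes tested, 2 rose and 1 fell, which is close to the share over all genes and no result about the list. These were the peptidyl-tRNA hydrolase PTRH2 (0.67) and the deacylase DTD1 (0.22) against PTRHD1 (-0.43).

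Of 21 partners of the mitochondrial synthetases in translation 10 rose and 0 fell, with a median of 0.18. The initiation factor MTIF2 rose by 0.26, MTFMT, which formylates the initiator methionine tRNA of mitochondria, by 0.47, the release factor MTRF1L by 0.45 and the elongation factor GFM1 by 0.29. Among those that did not pass, MTRFR was lower in all tamarixetin libraries (-0.19, adjusted p = 0.0512, edgeR) and PRORP had -0.26 (adjusted p = 0.13); both were picked after their values were seen. The difference between this list and the mitochondrial synthetases was not tested.

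**Figure D4:**
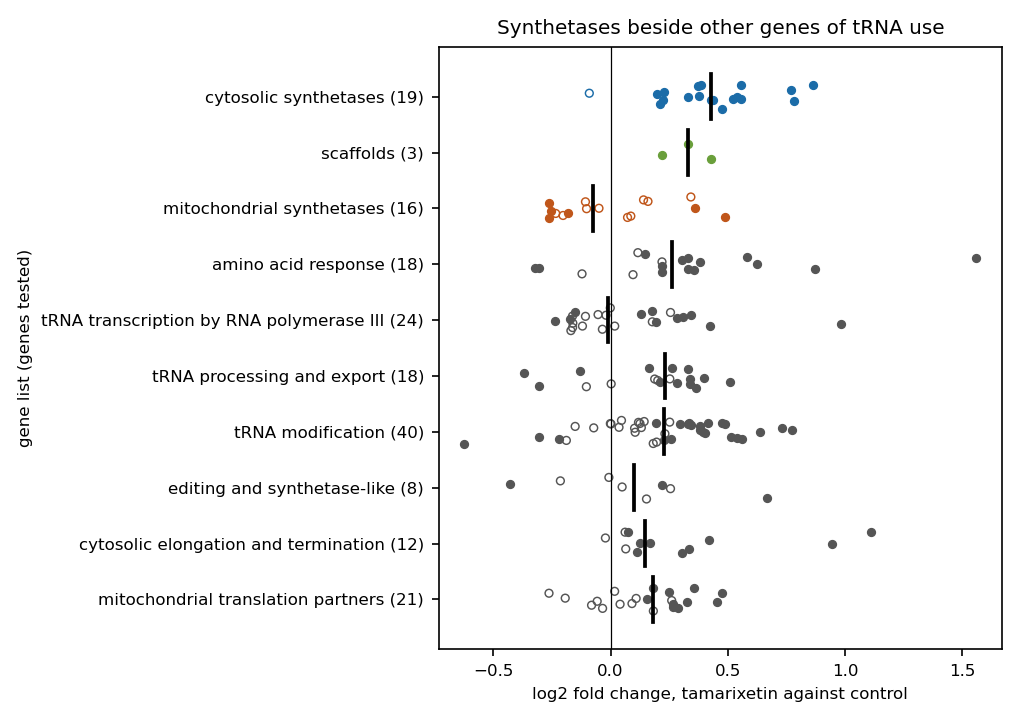
Log2 fold change of every gene tested (horizontal axis) in the 3 sets of members and the 7 related lists, 1 row per list with the number tested in brackets; filled points passed an adjusted p of 0.05 (edgeR), open points did not, vertical bars are medians, and the height within a row is random. The cytosolic synthetases have the highest median, 0.43, and the mitochondrial synthetases the lowest, -0.08.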

How the data were processed

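RNA of 6 HepG2 cultures was sequenced as 3′ libraries, 3 per group. Each deposited file lists raw counts by gene symbol, which the authors made with fastp 0.23.1, STAR 2.7.10b and featureCounts 2.0.6 on GRCh38, per the submitters' processing notes. For the annotation release, the strand setting and molecular identifiers, details were not given in the sources used here. Reads shared with overlapping genes may be lost or split.

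Counts were filtered with filterByExpr, scaled with TMM and tested in edgeR 4.0.16 (R 4.3.3; quasi-likelihood F test, group as the only term, Benjamini-Hochberg adjustment, threshold 0.05), after the script was tested on simulated data. SE is the log2 fold change divided by the root of F. Log2 ratios of pairs used a prior count of 2. The labels call the samples biological replicates. Between libraries of 1 group the chi-square over genes was 2.33 to 3.40 per gene, so none was treated as a copy. Gene positions are from RefSeq (GRCh38.p14) and overlaps from GENCODE 29. Values were printed per library for the scaffold genes, for up to 8 cytosolic and 8 mitochondrial members with the largest change past the threshold, and for pairs with opposite calls; of each related list, up to 4 genes with the smallest p were named, apart from 1 that is not reported here. Values of QARS1 and CARS2 and a few list members were added after they were seen. The members and lists were chosen with earlier results of these data known. Alternatives used other scalings, filters, DESeq2 1.42.0, limma-voom (limma 3.58.1), a replicate block, stricter calls and leaving out each library.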

Additional observations from a re-analysis of the deposited data

How the results depend on the processing

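The calls of the 18 cytosolic and 3 scaffold genes that rose, and of NARS2, RARS2, VARS2 and IARS2, held in all 14 fits with another scaling, filter, tool, block or left-out library, and no member changed sign. Cytosolic rises numbered 18 in each of these fits and 11 with 1.2-fold as the least fold tested against, which left 1 scaffold gene, 0 mitochondrial rises, 0 mitochondrial falls, and 1319 higher and 1241 lower genes in all. Mitochondrial rises were 1 with DESeq2 size factors, upper quartile scaling, no filter, at least 5 CPM in 3 libraries, DESeq2, limma-voom, a replicate block or an adjusted p of 0.01, 3 with library size alone, and 1 to 2 with a library left out. Mitochondrial falls were 6 with upper quartile scaling or at least 5 CPM in 3 libraries, 5 with the replicate block, 4 with DESeq2 size factors or limma-voom, 3 with library size alone, no filter, DESeq2 or an adjusted p of 0.01, and 3 to 5 with a library left out. QARS1 made 1 cytosolic fall with upper quartile scaling or at least 5 CPM in 3 libraries, and 0 to 1 with a library left out.

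The cytosolic median was 0.46 with library size alone, 0.39 with upper quartile scaling and 0.40 to 0.44 with a library left out. The mitochondrial median was -0.04, -0.11 and -0.11 to -0.028 in the same order, and -0.11 with at least 5 CPM in 3 libraries. That filter drops EARS2, so the mitochondrial median then covers fewer genes. The difference between the cytosolic and the mitochondrial median was 0.53 with that filter and 0.45 to 0.54 with a library left out. The median of all genes moved from -0.035 to 0.035 over the scalings. Without HARS1, MARS1, AARS2, HARS2 and YARS2, whose ends lie in another counted gene, the medians were 0.38 and -0.11, an alternative added after the data were seen, as were those of the related lists. The list of RNA polymerase III genes turned from a median of -0.01 to 0.025 with library size alone, and with a library left out ran from -0.022 to 0.013, with 0.0131, 0.0063 and 0.0014 without control replicate 2, tamarixetin replicate 2 and tamarixetin replicate 3.

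Same-numbered libraries did not deviate together (correlations from -0.041 to -0.00886), so the replicate number pairs nothing the data show. With it as a block, 2943 genes were higher and 2792 lower, against 2954 and 2817 without. The cause of these differences was not tested.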

Other observations

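2 further motifs were counted in the promoter windows as a description. The core of the antioxidant response element, TGACNNNGC, on either strand, occurred in 4 of 16 cytosolic members (25%: GARS1, KARS1, TARS1 and WARS1), 2 of 14 mitochondrial members (14.3%: NARS2 and RARS2) and 2 of 3 scaffold genes, beside 19.6% of tested genes with a window. The E-box CACGTG, which reads the same on both strands, occurred in 1 of 16 cytosolic members (IARS1), 3 of 14 mitochondrial members (CARS2, EARS2 and MARS2) and 1 of 3 scaffold genes (AIMP2), beside 12.4% of tested genes with a window.

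Across the 16 mitochondrial genes, those with a higher control level had lower log2 fold changes (Pearson r = -0.717, Spearman rho = -0.715). The 19 cytosolic genes gave -0.369 and -0.349. These are correlations across genes that share the same 6 libraries, the control level enters both axes, and they are given with no test. Of the mitochondrial class I genes 1 of 9 was higher and 4 were lower, and of class II 1 of 7 was higher and 0 lower. Over all genes tested 22.4% were higher and 21.3% lower, and the 4 falls are those given above as no result about the list. The median log2 fold change was -0.18 in class I, with 3 of 9 values positive, and 0.14 in class II, with 4 of 7 positive. Both classes thus had genes on each side of 0, and the difference between them was not tested.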
